A study of Homo sapiens with 2 samples.

Results

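The 31 genes described here encode mitochondrial aminoacyl-tRNA synthetases, the translation factors of the mitochondrial ribosome and enzymes that modify mitochondrial tRNAs. They were taken by symbol from gene tables of 58302 genes, and all 31 were found once in each table. They comprise 16 synthetases whose names end in ARS2, 10 factors of initiation, elongation, release and recycling, 4 tRNA modification enzymes and QRSL1, a subunit of a tRNA amidotransferase. Their expression was read from RNA-seq of A549, an established cell line from a human lung adenocarcinoma. There was a library of control cells and a library of cells overexpressing PGC-1alpha, the transcriptional coactivator encoded by PPARGC1A. Both were grown in F12K medium with serum under standard conditions. The labels name no construct, clone or time after its introduction.

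Mitochondria translate a small set of messenger RNAs, all encoding subunits of the oxidative phosphorylation complexes, on ribosomes of their own. The tRNAs and ribosomal RNAs come from the mitochondrial genome, whereas every protein described here is encoded in the nucleus and imported. Each synthetase joins an amino acid to its tRNA. Translation factors then start, extend and end the chain and free the ribosome. PGC-1alpha is known for raising genes of mitochondrial respiration through nuclear receptors of the ERR family and nuclear respiratory factors.

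The control library held 27125084 counts and the PGC-1alpha library 24334768. PPARGC1A had 5 counts in control cells and 4654 with PGC-1alpha, so its level matched the labels. Of 12 lung epithelial or A549 genes, 9 were measured, among them KRT7, KRT8 and KRT18, and their summed level was 17510 CPM (counts scaled to library size) in control and 16121 CPM in PGC-1alpha cells. Single markers differed in both directions. CDH1, the epithelial cadherin, stood at 48.0 and 24.8 CPM, the reductase genes AKR1B10 at 2639 and 1737 CPM and AKR1C1 at 870 and 528 CPM, and KRT7 at 2086 and 2616 CPM. The part of these differences in the results below was not tested. NKX2-1, a lung lineage factor, had 0 counts in both libraries, and the surfactant genes SFTPB and SFTPC had at most 5 counts. Of the markers of other cell types, 1 of 5 for fibroblasts, none of 4 for immune cells and none of 4 for endothelial cells were measured. Their summed levels were at most 3.14 CPM in either library. Transcripts of the mitochondrial genome took 6.22% of the control counts and 8.32% of the PGC-1alpha counts, and the part of this difference in the results below was not tested beyond leaving these transcripts out of the scaling.

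With 1 library per condition there is no replicate check, and no p-value is given. Each gene is described by its log2 ratio, PGC-1alpha library over control, of counts scaled to the library size. The range in parentheses after a ratio is an exact 95% interval for counting error alone, and differences between cultures are not in it. A difference was called when it reached 1.5-fold, a log2 ratio of 0.58 in size, and the interval left out 0. In bulk RNA, a change in RNA per cell and a change in the make-up of the culture cannot be told apart.

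The promoters of 4 genes are shown first because they carry the ends of the range described below. LARS2 had the highest ratio of the 31 genes, MARS2 the next, MTIF3 the lowest, and TUFM the highest level. Each window runs from 250 bases before to 50 bases from the annotated start, read 5′ to 3′ on the strand of the gene, from RefSeq on GRCh38.p14. The LARS2 window is chr3:45388326-45388625 on the plus strand, and the MARS2 window is chr2:197705119-197705418 on the plus strand. The TUFM window is chr16:28846299-28846598 and the MTIF3 window chr13:27450515-27450814, both on the minus strand. Capitals mark matches to the 3 motifs named after the sequences.
LARS2: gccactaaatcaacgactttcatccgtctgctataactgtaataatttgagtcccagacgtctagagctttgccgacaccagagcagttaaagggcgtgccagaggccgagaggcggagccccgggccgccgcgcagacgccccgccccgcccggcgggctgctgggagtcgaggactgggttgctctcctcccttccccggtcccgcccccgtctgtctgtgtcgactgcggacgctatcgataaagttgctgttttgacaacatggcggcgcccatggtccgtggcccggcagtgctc
MARS2: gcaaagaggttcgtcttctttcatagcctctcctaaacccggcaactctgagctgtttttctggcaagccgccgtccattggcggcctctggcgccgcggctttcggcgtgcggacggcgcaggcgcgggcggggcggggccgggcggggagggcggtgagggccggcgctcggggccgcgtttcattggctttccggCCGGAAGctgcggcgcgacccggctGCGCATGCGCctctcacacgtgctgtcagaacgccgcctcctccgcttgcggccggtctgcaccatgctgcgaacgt
TUFM: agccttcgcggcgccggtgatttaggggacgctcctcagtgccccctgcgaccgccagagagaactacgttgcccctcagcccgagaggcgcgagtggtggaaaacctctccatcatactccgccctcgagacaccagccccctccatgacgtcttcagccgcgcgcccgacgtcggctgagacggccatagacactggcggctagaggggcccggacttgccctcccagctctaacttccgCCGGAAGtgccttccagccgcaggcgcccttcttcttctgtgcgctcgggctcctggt
MTIF3: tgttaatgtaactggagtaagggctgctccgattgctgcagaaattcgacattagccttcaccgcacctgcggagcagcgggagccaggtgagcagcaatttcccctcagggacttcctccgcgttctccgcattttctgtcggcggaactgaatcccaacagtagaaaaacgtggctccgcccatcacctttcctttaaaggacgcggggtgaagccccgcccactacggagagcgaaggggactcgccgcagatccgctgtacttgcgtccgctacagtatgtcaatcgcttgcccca

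The letters searched on both strands were AAGGTCA, the half-site of ERR receptors, GCATGCGC, the core of the NRF1 site, and CCGGAAG, a core bound by ETS factors such as GABP. RefSeq windows were found for 26 of the 31 genes. There was no entry for AARS2, MTFMT, MTO1, PUS1 and VARS2. The ETS core was present in 14 of the 26, or 53.8%, against 22.5% of 9726 measured protein-coding genes with a window and 12.2% of all 27305 genes with one. In MARS2 it began 52 bases before the start, and in TUFM 8 bases before it. The RefSeq start of TUFM lay 60 bases inside the gene range listed with the counts, so by that range the TUFM match lies within the gene. The RefSeq start lay 70 bases inside the listed range for LARS2, 27 for MTIF3 and 0 for MARS2. The NRF1 core was present in MARS2 and YARS2, 7.69% of the 26 against 6.41% of the measured coding genes. In MARS2 it was matched on both strands, beginning 27 and 25 bases before the start, and the matches overlap in a run of 10 letters. The ERR half-site was in none of the 26 windows, against 3.59% of the measured coding genes. LARS2 and MTIF3, at opposite ends of the range of ratios, held none of the 3 motifs in these windows. The 14 genes with the ETS core had a median log2 ratio of 0.25, ranging from -0.15 to 0.53. The 12 without it had a median of 0.15, ranging from -0.29 to 0.61, so both sets covered much of the same range.

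All 31 genes were measured, meaning a mean of at least 1 CPM over both libraries, and they had between 142 and 9050 counts in a library. As a group they lay slightly higher in the PGC-1alpha library, and their differences were small. Their median log2 ratio was 0.19, and 27 of the 31 lay above 0. Over all 14154 measured genes the median was -0.01, and 49.0% lay above 0. The ratio exceeded the upper quartile of all measured genes, 0.17, in 17 of the 31. Summed over the 31 genes, the level was 1582 CPM in control and 1831 CPM in PGC-1alpha cells.

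Of the 31, LARS2 alone was called higher at 1.5-fold and none was called lower. Across all measured genes 5.30% were called higher and 3.92% lower, so the count of 1 among the 31 is near the background. With a smaller step, a level at least 25% above that of the other library, 7 of the 31 were higher, LARS2, MARS2, MTFMT, PARS2, MTIF2, MTO1 and GFM2. None was lower at that step. The background at that step was 11.3% higher and 9.35% lower. The interval lay wholly above 0 for 19 of the 31 and wholly below 0 for CARS2 and MTIF3, and it held 0 for the other 10. In the background 22.5% of genes had an interval wholly above 0 and 24.2% wholly below. These shares depend on depth, since intervals narrow with more counts, and the 31 genes had a median level of 33.9 CPM against 24.2 CPM over all measured genes.

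**Figure D1:**
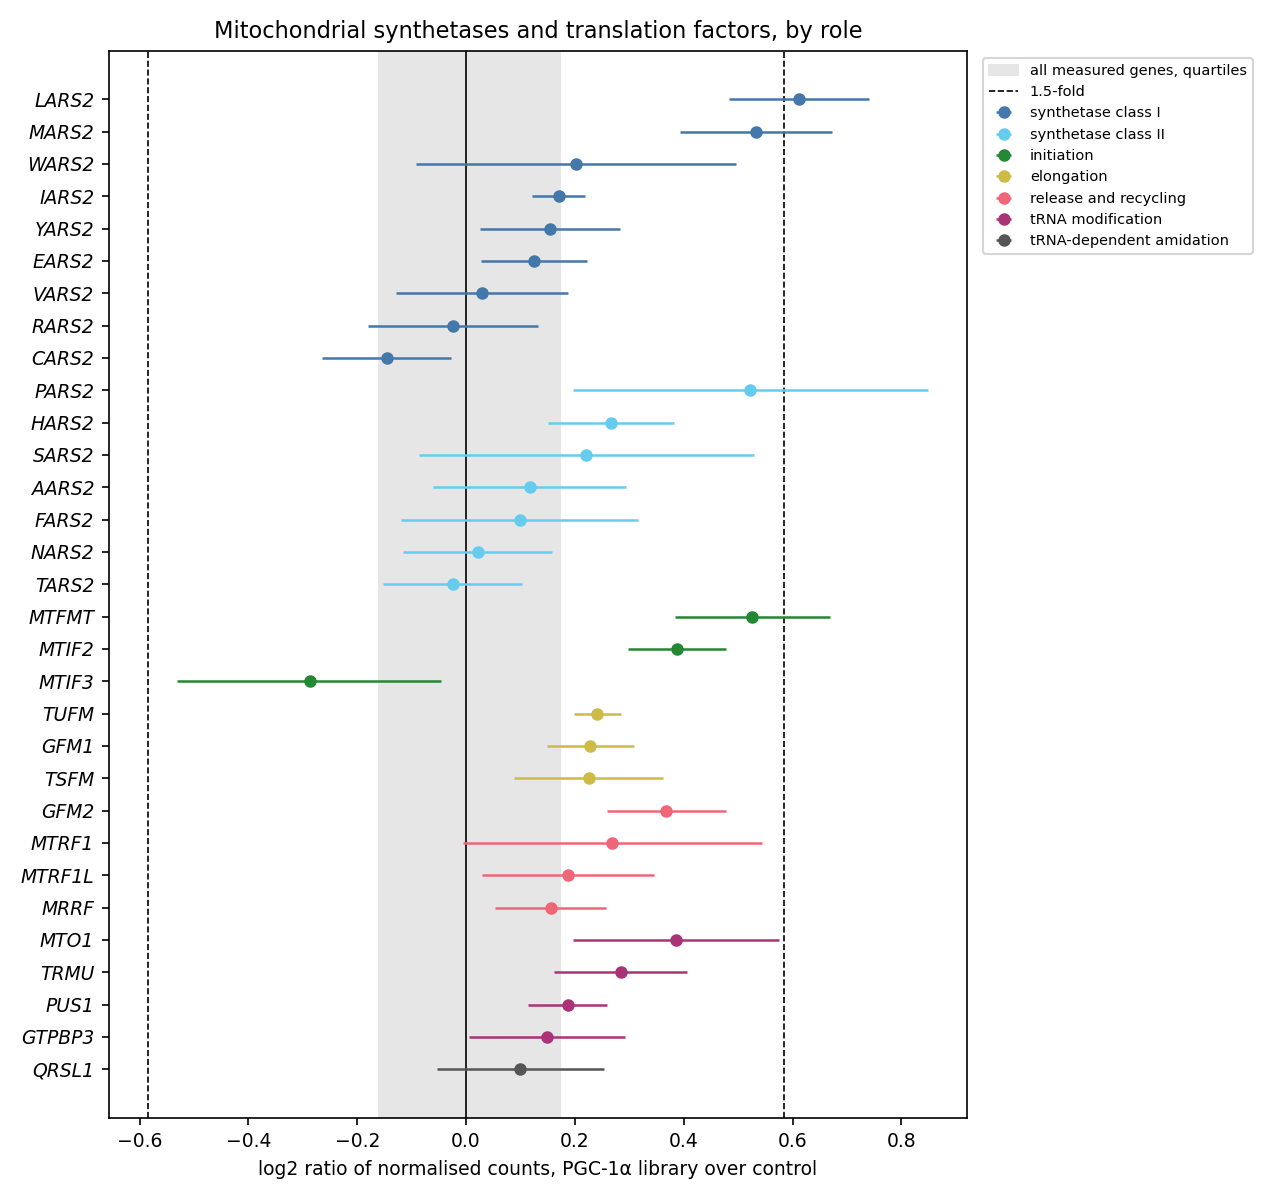
Log2 ratio of normalised counts, PGC-1alpha library over control, for each of the 31 genes, grouped by role. Points are the ratios, bars the exact 95% intervals for counting error, the grey band the quartiles of all 14154 measured genes and dashed lines 1.5-fold. LARS2 is the only point past a dashed line, and MTIF3 and CARS2 are the only ones whose bars lie wholly below 0.

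Per length of gene, the levels spanned 2 orders of magnitude. The authors' FPKM was highest for TUFM, the elongation factor Tu that brings charged tRNAs to the ribosome, at 140 in the control and 164 in the PGC-1alpha library. IARS2, the isoleucine enzyme, followed at 61.0 and 67.8, and MTIF2 at 20.3 and 26.2. These 3 genes took 51.6% of the summed FPKM of the 31 in the control and 52.3% in the PGC-1alpha library. The lowest levels were those of MTO1, at 1.32 and 1.70, WARS2, the tryptophan enzyme, at 1.84 and 2.09, and SARS2, the serine enzyme, with a mean of 2.15. In counts these were 432 and 501 for MTO1, 192 and 196 for WARS2, and 175 and 181 for SARS2, so their intervals are among the widest. The order of levels was nearly the same in both libraries, with a rank correlation of 0.97 over the 31 genes, which share both libraries. The ratio had little relation to level or to gene length across the 31, with rank correlations of 0.09 and -0.01. FPKM here divides by the gene length in the files, which equalled the union of all annotated GENCODE exons for 27 of the 31 genes. A gene with a long listed length, such as MRRF or MTO1, may therefore have a lower value than its main transcript would give.

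**Figure D2:**
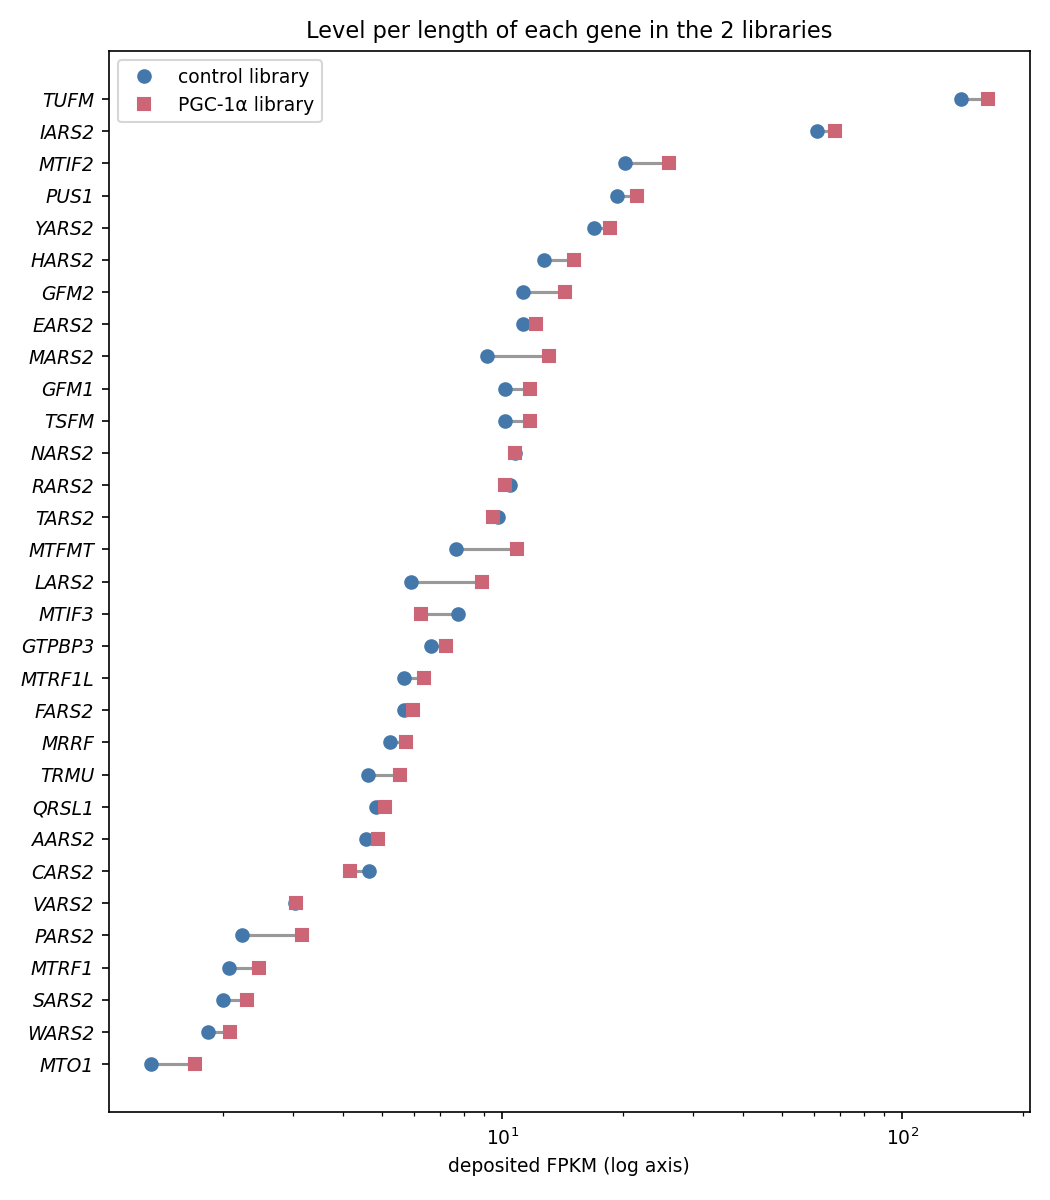
Deposited FPKM of each of the 31 genes in the control library (circles) and the PGC-1alpha library (squares), on a log axis, ordered by the mean of both. TUFM lies at 140 and 164 and MTO1 at 1.32 and 1.70, and the squares lie to the right of the circles for most genes.

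Among the synthetases, the largest differences were those of LARS2, MARS2 and PARS2, which charge leucine, methionine and proline. LARS2 (ENSG00000011376, chromosome 3, 45388506 to 45549421, plus strand) had 863 counts in control cells and 1170 with PGC-1alpha. Its level was 31.6 and 48.3 CPM, a 1.53-fold difference and a log2 ratio of 0.61 (0.48 to 0.74). Its FPKM was 5.91 and 8.90. The interval held the 1.5-fold threshold, so this call is a close one. It was higher in the PGC-1alpha library, and 94.7% of measured genes had ratios no higher than this. LARS2 overlapped no other measured gene, and its antisense partner LARS2-AS1 had 1 count in the control and 0 in the PGC-1alpha library.

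MARS2 (ENSG00000247626, chromosome 2, 197705369 to 197708387, plus strand) stood at 749 and 962 counts, or 27.5 and 39.7 CPM. Its log2 ratio was 0.53 (0.39 to 0.67), higher in the PGC-1alpha library but under 1.5-fold. PARS2 (ENSG00000162396, chromosome 1, 54756898 to 54764514, minus strand) was among the lowest of the 31 in counts, with 142 and 181. Its log2 ratio of 0.52 had a wide interval of 0.20 to 0.85, which holds both a small difference and one past 1.5-fold.

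Of the other synthetases with an interval above 0, HARS2, the histidine enzyme, stood at 43.0 CPM in control and 51.7 CPM in PGC-1alpha cells, giving a log2 ratio of 0.27 (0.15 to 0.38). IARS2, with 6886 and 6878 counts, was the best measured, at 252.5 and 284 CPM and a log2 ratio of 0.17 (0.12 to 0.22). YARS2, the tyrosine enzyme, stood at 36.2 and 40.2 CPM, with a log2 ratio of 0.15 (0.03 to 0.28). EARS2, which charges glutamate, stood at 64.1 and 69.9 CPM, with a log2 ratio of 0.12 (0.03 to 0.22). All 4 were higher in the PGC-1alpha library by less than 25%.

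CARS2, the cysteine enzyme (ENSG00000134905, chromosome 13, 110641412 to 110713603, minus strand), went the other way. It had 1319 counts in control cells and 1058 with PGC-1alpha, or 48.4 and 43.7 CPM, and a log2 ratio of -0.15 (-0.26 to -0.03). This was the only synthetase whose interval lay below 0.

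For 8 synthetases the interval held 0, so a difference was not detectable at this depth. The log2 ratio was 0.22 (-0.09 to 0.53) for SARS2, 0.20 (-0.09 to 0.50) for WARS2, 0.12 (-0.06 to 0.29) for AARS2, the alanine enzyme, and 0.10 (-0.12 to 0.32) for FARS2, the phenylalanine enzyme. VARS2, for valine, and NARS2, for asparagine, stood at 0.03 and 0.02. RARS2, for arginine, and TARS2, for threonine, both stood at -0.02. The intervals of the last 4 reached at most 0.19 above 0 and 0.18 below it, so counting error does not extend to a 25% excess in either library for them.

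Synthetases fall into structurally distinct classes with different catalytic folds. The 9 of class I had a median log2 ratio of 0.15 and ranged from -0.15 to 0.61. The 7 of class II had a median of 0.12 and ranged from -0.02 to 0.52, so the classes overlapped.

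Initiation held both ends of the range among the factors. MTFMT, which formylates the methionine carried by the initiator tRNA (ENSG00000103707, chromosome 15, 65001512 to 65029639, minus strand), had 712 counts in control cells and 910 with PGC-1alpha. Its level was 26.1 and 37.6 CPM, giving a log2 ratio of 0.53 (0.38 to 0.67). MTIF2, which places the formylated tRNA on the small ribosomal subunit, had 1853 and 2151 counts, or 67.9 and 88.9 CPM, giving a log2 ratio of 0.39 (0.30 to 0.48). MTIF3, which helps free the small subunit for initiation (ENSG00000122033, chromosome 13, 27435643 to 27450591, minus strand), had 337 and 245 counts. Its level was lower in the PGC-1alpha library, at 12.4 and 10.1 CPM, giving a log2 ratio of -0.29 (-0.53 to -0.05). MTIF3 overlaps GTF3A on the opposite strand over 11.3% of its exon bases, and GTF3A was more abundant and stood at 0.03. Of the 3 initiation genes, 2 thus had intervals above 0 and 1 an interval below 0.

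The elongation factors lay close together. TUFM (ENSG00000178952, chromosome 16, 28842411 to 28846408, minus strand) had 8626 counts in control cells and 9050 with PGC-1alpha, or 316 and 374 CPM. Its log2 ratio was 0.24 (0.20 to 0.28). TSFM, which recharges TUFM with GTP, stood at 31.3 and 36.6 CPM, giving a log2 ratio of 0.23 (0.09 to 0.36). GFM1, which moves the ribosome along the message, stood at 91.2 and 107 CPM, giving a log2 ratio of 0.23 (0.15 to 0.31). All 3 were higher in the PGC-1alpha library by under 25%, and their intervals overlapped.

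Of the release and recycling genes, GFM2, which works with the recycling factor MRRF to split the ribosome, differed most. It stood at 46.9 CPM in control and 60.5 CPM in PGC-1alpha cells, giving a log2 ratio of 0.37 (0.26 to 0.48). Its partner MRRF stood at 57.5 and 64.0 CPM, giving a log2 ratio of 0.16 (0.05 to 0.26), and the intervals of these partners just failed to overlap. MTRF1L, the release factor that reads standard stop codons, stood at 24.1 and 27.4 CPM, with a log2 ratio of 0.19 (0.03 to 0.35). MTRF1, a related release factor, had 216 and 231 counts, with a log2 ratio of 0.27, with an interval of -0.005 to 0.54 that just reached 0.

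The 4 modification enzymes all had intervals above 0. MTO1 and GTPBP3 act together on the wobble uridine of several mitochondrial tRNAs, and TRMU adds sulfur to the same base. MTO1 stood at 15.8 CPM in control and 20.7 CPM in PGC-1alpha cells, giving a log2 ratio of 0.39 (0.20 to 0.57). GTPBP3 stood at 29.8 and 33.1 CPM, giving a log2 ratio of 0.15 (0.01 to 0.29). TRMU stood at 38.6 and 47.0 CPM, giving a log2 ratio of 0.28 (0.16 to 0.41). PUS1, a pseudouridine synthase, stood at 110 and 126 CPM, giving a log2 ratio of 0.19 (0.11 to 0.26). MTO1 alone of these passed 25%.

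Human mitochondria make glutamine tRNA by charging it with glutamate through EARS2 and converting the product with an amidotransferase of QRSL1, GATB and GATC. QRSL1 had 713 counts in control cells and 678 with PGC-1alpha, a log2 ratio of 0.10 (-0.05 to 0.25). GATB, from a companion list, had 500 and 558 counts, with a log2 ratio of 0.33 (0.15 to 0.51). GATC had 731 and 661 counts, with a log2 ratio of 0.03 (-0.13 to 0.18). The interval of GATB overlapped those of QRSL1 and GATC, and differences between the subunits were not tested.

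Since most synthetases have a separate cytosolic counterpart, each mitochondrial enzyme was set beside the cytosolic enzyme for the same amino acid. None of 18 cytosolic synthetase genes was called at 1.5-fold in either direction. Their median log2 ratio was 0.05, against 0.14 for the 16 mitochondrial ones. QARS, for glutamine, was the highest, at 107 CPM in control and 143 CPM in PGC-1alpha cells, giving a log2 ratio of 0.42 (0.35 to 0.49). NARS followed at 0.20, LARS at 0.15, and VARS was the lowest at -0.14 (-0.21 to -0.08). GARS and KARS, which serve both compartments from a shared gene, stood at 0.04 and 0.14.

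In 13 of 16 amino acids the mitochondrial enzyme had the higher ratio, with a median difference of 0.12 on the log2 scale. Counting intervals of the difference lay above 0 for 7 amino acids, below 0 for 3 and held 0 for 6. For single ratios, 22.5% of all measured genes had an interval wholly above 0 and 24.2% wholly below. No such share was computed for differences between 2 genes, so these counts have no background of their own. The 7 include histidine, whose HARS2 and HARS genes share exon bases. They also include alanine and valine, where the interval of the mitochondrial gene itself held 0. There the cytosolic genes lay below 0, AARS at -0.07 (-0.11 to -0.04) and VARS at -0.14. Of the 3, asparagine and threonine likewise had a mitochondrial interval that held 0, with NARS at 0.20 and TARS at 0.12. The difference was 0.47 (0.15 to 0.79) for proline, with PARS2 against EPRS, and 0.46 (0.31 to 0.60) for methionine, with MARS2 against MARS. For leucine, with LARS2 against LARS, it was also 0.46 (0.32 to 0.60). The difference ran the other way for cysteine, at -0.19 (-0.34 to -0.04), for asparagine, at -0.18 (-0.32 to -0.03), and for threonine, at -0.15 (-0.28 to -0.01). The remaining values lay between 0.03 and 0.22. FARSA stood for the cytosolic phenylalanine enzyme, whose other subunit gene FARSB had a log2 ratio of 0.03, and EPRS served both proline and glutamate. By level, the cytosolic gene had the higher FPKM for 15 of 16 amino acids in the control and 14 in the PGC-1alpha library. Isoleucine was the exception in both libraries, with IARS at 41.3 and 41.4 FPKM against 61.0 and 67.8 for IARS2. HARS2 and HARS changed order, at 12.7 and 13.0 FPKM in the control and 15.1 and 13.8 in the PGC-1alpha library. These orders depend on the listed gene lengths, 7401 bases for IARS, 4165 for IARS2, 8436 for HARS and 3408 for HARS2. In CPM, which is not divided by length, the cytosolic gene was higher in both libraries for both amino acids. IARS stood at 303 and 309 CPM against 252.5 and 284 for IARS2. HARS stood at 109 and 118 CPM against 43.0 and 51.7 for HARS2.

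**Figure D3:**
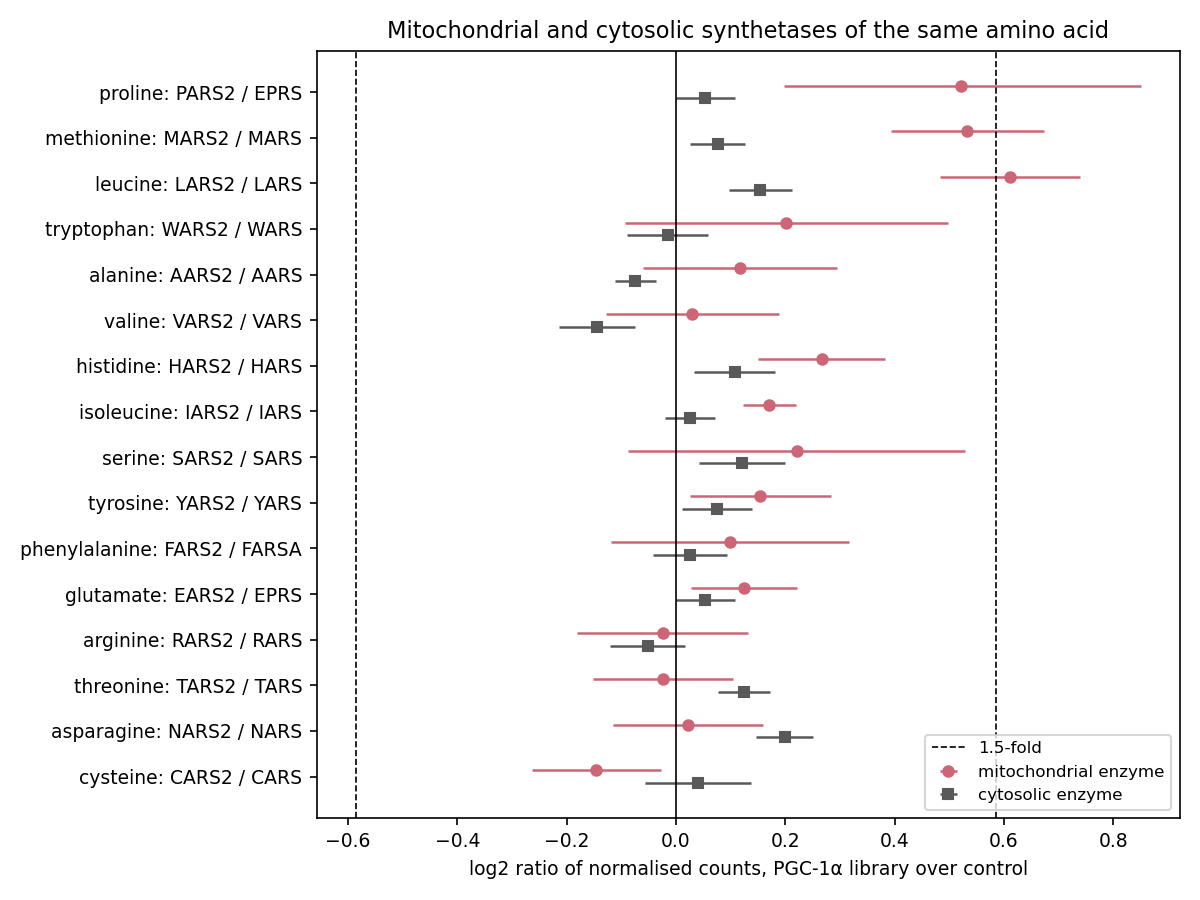
Log2 ratio of normalised counts, PGC-1alpha library over control, for the mitochondrial enzyme (circles) and the cytosolic enzyme (squares) of each of 16 amino acids, ordered by their difference. Bars are exact 95% intervals for counting error and dashed lines 1.5-fold. The bars are well apart for methionine and leucine, and cysteine, asparagine and threonine have the circle to the left of the square.

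Other genes of mitochondrial translation were described by 5 companion lists. Of 26 further tRNA maturation and translation genes, none was called at 1.5-fold, and the median log2 ratio was 0.11. C12orf65, a ribosome rescue factor gene, was the highest at 0.47 (0.32 to 0.63), followed by LRPPRC, which stabilises mitochondrial messages, at 0.40 and TACO1, an activator of COX1 translation, at 0.39. OSGEPL1, which modifies adenosine next to the anticodon, was the lowest at -0.38 (-0.65 to -0.11). None of 21 mitoribosome assembly genes was called, their median was 0.12, and they ranged from -0.24 for MTERF4 to 0.29 for TFB1M, a ribosomal RNA methyltransferase. RCC1L stood at 0.25 and FASTKD2 at 0.25. Of 76 measured mitochondrial ribosomal proteins, 6 were called higher and 1 lower, with a median of 0.15. The background shares over all measured genes were 5.30% higher and 3.92% lower, so these counts are near the background. The largest ratios were 0.96 for MRPL2, 0.91 for MRPS5, 0.91 for MRPS25 and 0.80 for MRPL34. The 1 called lower was MRPL23, with 1086 and 627 counts and a log2 ratio of -0.62 (-0.76 to -0.48).

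Of the 13 protein-coding genes of the mitochondrial genome, whose messages this machinery translates, 1, MT-ATP8, was called higher, at 0.78 (0.71 to 0.86). All 13 had ratios above 0, with a median of 0.37. The next ratios were 0.53 for MT-ND6, 0.52 for MT-CO1 and 0.47 for MT-ND5. MT-ATP8, with 2395 and 3662 counts, overlaps MT-ATP6 on the same strand. MT-ATP6 had 115868 and 132581 counts and stood at 0.37 (0.36 to 0.38). Whether the MT-ATP8 counts stand for a separate message was not tested. Mitochondrial tRNA genes were measured for 17 of 22, of which MT-TP, the proline tRNA that PARS2 charges, was called higher at 0.64 (0.56 to 0.72). All 17 lay above 0, and their median was 0.36. Among these 17, MT-TP was followed by MT-TV, for valine, at 0.54, MT-TE, for glutamate, at 0.51 and MT-TS2, for serine, at 0.47. Of the tRNA genes below the filter, MT-TF stood at -0.07 on 6 and 5 counts, and MT-TA, MT-TQ, MT-TS1 and MT-TK lay above 0. MT-TA was past 1.5-fold, at 1.59 (0.64 to 2.72) on 12 and 33 counts, but is not among the calls because of the filter. The intervals of the other genes below the filter held 0. With 5.30% of all measured genes called higher, 1 call in the coding genes and 1 in the tRNA genes are near the background. The leucine tRNAs, substrates of LARS2, stood at 0.33 (0.15 to 0.52) for MT-TL1 and 0.46 (0.16 to 0.77) for MT-TL2, and the methionine tRNA MT-TM at 0.17 (-0.44 to 0.78) with 48 counts in each library. These genes lie end to end on the mitochondrial genome, so counts of a tRNA gene can come from longer precursors.

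**Figure D4:**
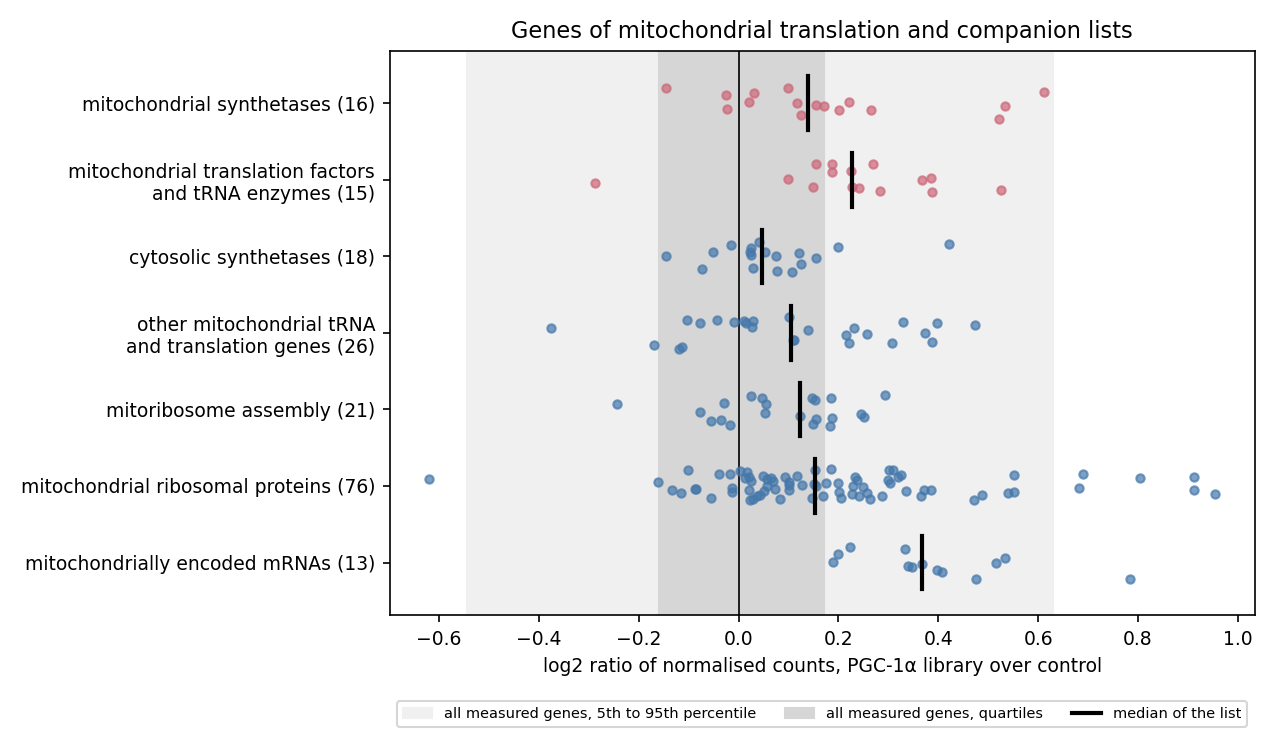
Log2 ratio of normalised counts, PGC-1alpha library over control, for measured genes of 7 groups. Each point is a gene, black bars are medians and grey bands span the quartiles and the 5th to 95th percentiles of all measured genes. Medians run from 0.05 for cytosolic synthetases to 0.37 for mitochondrially encoded mRNAs, with the genes described here at 0.14 for synthetases and 0.23 for factors and tRNA enzymes.

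The strand setting of the counting is not known, so reads of overlapping genes may not have been separated. Of the 31 genes, 12 overlap another measured gene and 10 share exon bases with one. SARS2 shares 10.8% of its exon bases with MRPS12 on the opposite strand, which had 4599 and 5986 counts against 175 and 181 for SARS2 and a log2 ratio of 0.55. HARS2 shares 11.7% of its exon bases with HARS on the opposite strand, which stood at 0.11, and 4.07% with ZMAT2 on the same strand, which was more abundant and stood at -0.11 (-0.19 to -0.02). EARS2 shares 6.46% with UBFD1 on the opposite strand, also more abundant, at -0.18 (-0.25 to -0.11). GFM2 shares 8.89% of its exon bases with NSA2 on the opposite strand, which was more abundant and stood at 0.02. The values of these genes and of MTIF3 are therefore uncertain. Without the 12, the median of the other 19 was still 0.19, and 17 of the 19 lay above 0. VARS2 and MTRF1L are among these 19. Pseudogenes named after the 31 genes held at most 4 counts in a library.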

How the data were processed

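Per the file headers, the authors deposited a raw count and an FPKM value for each Ensembl gene, in 1 library per condition. The submitters' processing notes list, with no role, Cuffdiff 2.1.1, Cufflinks 2.1.1, TopHat2 2.0.9 and Bowtie2 2.0.6. Not given in the sources used here were the counting program, genome build and strand setting. Gene coordinates equalled GENCODE 29 on GRCh38 for 97.6% of shared gene identifiers, so coordinates are read as GRCh38. The deposited FPKM equalled count over gene length and a single library size in each library, so it is no separate measurement.

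Counts were scaled with TMM in edgeR 4.0.16 (R 4.3.3). Log2 ratios used 0.5 added to each count, and intervals were Clopper-Pearson intervals of the split of both counts at 95%, computed with scipy 1.17.1. The calls were tested on simulated data that held counting error alone, so that test could not assess differences between cultures. With 1 library in each group no residual degrees of freedom exist, so the quasi-likelihood test could not be fitted. A count of 0 would allow up to 3 counts, 0.110 CPM in the control and 0.124 in the PGC-1alpha library. Reads are not independent molecules, so intervals cover counting error only. Intervals of a difference between 2 genes used the normal approximation to counting error on the log scale. Overlaps used the files' coordinates and GENCODE 29 exons, and promoters came from RefSeq. All 31 genes were named. In companion lists, up to 4 genes with the largest absolute ratio whose interval left out 0 were named. MT-TL1, MT-TL2, MT-TM, GATB, GATC, FARSB, GARS and KARS were added after their values were seen. So were MRPL23, MT-ATP6 and the tRNA genes below the filter. The genes, lists and alternatives were chosen with earlier results of these data known. Alternatives were other scalings (DESeq2 1.42.0 size factors, total counts, TMM without mitochondrial genes), filters, prior counts, FPKM pseudocounts and fold thresholds.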

Additional observations from a re-analysis of the deposited data

How the results depend on the processing

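The call of LARS2 held under every other scaling of the counts. It was lost with a pseudocount added to FPKM, since its ratio lay close to the threshold. The number of the 31 genes called higher was 1 with DESeq2 size factors, with total counts, with TMM without mitochondrial genes, with either other low-count filter, with 5 added to each count and without overlapping genes. It was 0 on the FPKM scale with 0.1 added and 0 with 1 added, where LARS2 stood at 0.58 and 0.52. With a threshold of 25% it was 7, and with 2-fold it was 0. For cytosolic synthetases the number higher was 1, QARS, at 25%. None of the 31 was called lower in any of these alternatives. The median of the 31 ran from 0.14, with FPKM and a pseudocount of 1, to 0.19, and 4 of the 31 lay below 0 in every alternative that kept all of them. Over the scalings the median of all genes ran from -0.02 to -0.005. Of 186 recomputed ratios of single genes, all 186 stayed within their counting interval. No paired analysis was possible because each group holds 1 library. Depth limits the lowest genes most, and the median interval of the 31 reached 0.14 on the log2 scale to either side.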
